A study of Mus musculus with 17 samples.

Results

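Glucose breakdown and its control by oxygen were followed through 36 genes in the mRNA arrays of 6 mouse hematopoietic stem and progenitor populations. The members are 4 glucose and lactate transporters, 3 hexokinases, 7 enzymes of upper and 8 of lower glycolysis, 2 lactate dehydrogenases, 5 genes of the pyruvate dehydrogenase step, 3 hypoxia-inducible factor subunits, 2 prolyl hydroxylases and 2 hypoxia target genes. They were chosen by name, all 36 were found among the 28090 gene names of the array, and each was read from its brightest probe. All populations came from the bone marrow of young adult female C57Bl/6 mice, several pooled per replicate, after removal of cells with lineage antigens and enrichment of c-kit+ cells. The HSC subsets, which are Long-Term HSCs (LT-HSC, n = 2 arrays), Short-Term HSCs (ST-HSC, n = 3) and Multipotent Progenitors (MPP, n = 3), were gated in one sort. The myeloid populations, which are Common Myeloid Progenitors (CMP, n = 3), Granulocyte-Monocyte Progenitors (GMP, n = 3) and Megakaryocyte-Erythroid Progenitors (MEP, n = 3), were gated in another, so sort and class cannot be told apart. One LT-HSC array is labelled as a pool of numbers 2 and 3 and the other carries no number, nor does 1 array of each other population. No treatment or mutant was involved. Each array holds RNA of many cells, so fewer cells of a type and less RNA per cell cannot be told apart.

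Glycolysis splits glucose into pyruvate in the cytosol and yields ATP without oxygen. Pyruvate then becomes lactate through lactate dehydrogenase, or enters mitochondria through pyruvate dehydrogenase, which the pyruvate dehydrogenase kinases (Pdk) switch off by phosphorylation. When oxygen is scarce, the prolyl hydroxylases (Egln genes) no longer mark HIF alpha subunits for destruction, and HIF raises transporters, glycolytic enzymes and Pdk1. Bone marrow is poor in oxygen, and quiescent HSCs are known for relying on glycolysis, with Hif1a and the Pdk genes needed for their quiescence.

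HIF binds a core of RCGTG, that is ACGTG or GCGTG, so the 250 bases before each RefSeq transcription start (GRCm38.p6) were searched for both words on both strands. Promoters were found for 34 members (49 starts, the array's Pkm2 under its present symbol Pkm). Slc2a3 and Epas1 were not in the table. ACGTG stood in 20 of 49 member promoters (40.8%) against 16.6% of all 32851, GCGTG in 25 (51%) against 28.2%, and either word in 37 (75.5%) against 38.6%. The members' promoters were also richer in G and C, with a median of 59.2% against 52.4% over all promoters, and both words contain CG. At least 1 promoter of 30 members held a match, which describes letters and not binding. The promoters of the 5 genes that varied most among the populations, and of Pklr, which had the largest single difference, are shown because the results turn on them. Capitals mark ACGTG or GCGTG, or CACGT or CACGC where the word lies on the opposite strand. The windows are Slc2a1 chr4:119108495-119108744 (plus strand), Hk2 chr6:82774455-82774704 (minus), Pgam1 chr19:41911621-41911870 (plus), Ldhb chr6:142507958-142508207 (minus), Egln3 chr12:54203875-54204124 (minus) and the first of 2 starts of Pklr chr3:89135892-89136141 (plus).
Slc2a1: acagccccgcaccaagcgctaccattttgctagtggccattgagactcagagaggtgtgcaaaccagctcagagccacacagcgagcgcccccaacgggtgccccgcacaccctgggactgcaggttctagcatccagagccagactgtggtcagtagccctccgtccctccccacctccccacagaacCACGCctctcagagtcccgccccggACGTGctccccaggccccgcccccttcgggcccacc
Hk2: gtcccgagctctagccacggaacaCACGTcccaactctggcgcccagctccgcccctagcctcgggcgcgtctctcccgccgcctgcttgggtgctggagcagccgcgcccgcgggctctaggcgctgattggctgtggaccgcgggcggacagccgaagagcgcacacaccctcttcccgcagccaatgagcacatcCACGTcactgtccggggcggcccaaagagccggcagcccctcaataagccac
Pgam1: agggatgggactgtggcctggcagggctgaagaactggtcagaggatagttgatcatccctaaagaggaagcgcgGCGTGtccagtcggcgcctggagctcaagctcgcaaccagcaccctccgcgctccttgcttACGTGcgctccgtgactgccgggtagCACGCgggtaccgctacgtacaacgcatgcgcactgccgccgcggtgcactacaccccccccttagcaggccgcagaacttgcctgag
Ldhb: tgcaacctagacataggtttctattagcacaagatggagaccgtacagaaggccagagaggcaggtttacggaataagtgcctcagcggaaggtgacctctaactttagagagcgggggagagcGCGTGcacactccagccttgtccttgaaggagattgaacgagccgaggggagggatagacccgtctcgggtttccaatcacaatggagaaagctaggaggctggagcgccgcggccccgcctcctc
Egln3: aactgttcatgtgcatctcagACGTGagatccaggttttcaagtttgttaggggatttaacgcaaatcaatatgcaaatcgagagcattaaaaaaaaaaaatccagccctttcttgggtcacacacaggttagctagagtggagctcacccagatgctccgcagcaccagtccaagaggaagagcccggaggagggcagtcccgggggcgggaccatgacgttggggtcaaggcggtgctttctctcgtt
Pklr: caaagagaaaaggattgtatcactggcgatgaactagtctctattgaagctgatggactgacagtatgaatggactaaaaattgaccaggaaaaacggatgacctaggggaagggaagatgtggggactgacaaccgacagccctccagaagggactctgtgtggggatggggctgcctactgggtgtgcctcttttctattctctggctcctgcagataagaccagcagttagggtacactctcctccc
Pgam1 held 3 matches, Slc2a1 and Hk2 held 2 each, and Ldhb and Egln3 held 1 each. Neither start of Pklr held one, which says only that these letters are not in these windows.

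Levels are log2 intensities of 1-colour arrays, quantile normalized over all 17 arrays, and differences are log2 differences of population means with their standard error (SE). Probes were called well above background by the scanner software for 32 to 36 members per array. Arrays of 1 population correlated at 0.9594 to 0.9931 over the brightest probes of all gene names, and arrays of different populations at up to 0.9849. The LT-HSC array without a number was dim, with a 75th percentile intensity of 51.59 against 237 to 513.5 on the other arrays, and its lowest log2 level well above background was 5.67. Arrays were scanned in 3 periods. Period 1 held the numbered myeloid arrays, period 2 held 1 array of every population but LT-HSC, and period 3 held the other HSC subset arrays with both LT-HSC arrays alone on 1 slide. Markers of the sorted populations were brightest in the populations they mark. Summed linear intensities of 9 HSC markers were 14400 to 23900 in the HSC subsets and 2130 to 5330 in the myeloid arrays, 7 GMP markers reached 615000 to 920000 in GMP, 325000 to 530000 in ST-HSC and 15200 to 108000 in MEP, and 6 MEP markers reached 102000 to 116000 in MEP and 3510 to 4770 in GMP. Slamf1, an HSC marker, was not well above background in MPP, GMP or MEP, and neither was Meis1 in MEP. Markers of mature and other cells were also present. The 7 mature neutrophil markers summed to 355000 to 563000 in LT-HSC, 268000 to 565000 in ST-HSC, 75000 to 290000 in MPP, 38500 to 105000 in CMP, 48100 to 229000 in GMP and 86800 to 174000 in MEP. The 7 B cell markers reached 5870 to 9480 in LT-HSC and at most 4440 elsewhere, and the 7 T cell markers lay at 847 to 1070 in LT-HSC, 698 to 921 in MPP, 297 to 479 in ST-HSC and 151 to 326 in the myeloid arrays. The 5 mast cell markers were at 12700 to 19100 in GMP and 4130 to 7660 in ST-HSC against at most 1900 elsewhere, and the 5 megakaryocyte markers were highest in CMP (21600 to 53500) and ST-HSC (27500 to 31200). The part of such cells in the results was not tested.

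To ask which of the genes differed among the populations at all, the moderated F-test of limma over the 6 means was used. It called 32 of 36 members at an adjusted p under 0.05, where 40.2% of all gene names were called. Of the 31 members well above background on all 17 arrays it called 27, beside 61.9% of the 10981 genes as bright. At the study's own threshold of p under 1e-06, it called 5 members (6.08% of all genes): the phosphoglycerate mutase Pgam1 (F = 110), the prolyl hydroxylase Egln3 (103.4), the lactate dehydrogenase subunit Ldhb (90.5), the glucose transporter Slc2a1 (87.3) and the hexokinase Hk2 (58.5). The liver-type phosphofructokinase Pfkl, Pdk2, the HIF beta subunit Arnt and the lactate dehydrogenase subunit Ldha were not called, with adjusted p between 0.135 and 0.579. With scanning period as a block the count was also 32, beside 39.4% of all genes, but Ldha (adjusted p = 0.0101) and Arnt (0.0465) were called there while Pdk1 (0.0967) and Eno1 (0.0829) were not. The highest mean lay in GMP for 13 members, in MEP for 9, in MPP for 8, in LT-HSC for 4 and in CMP for 2. The lowest lay in MEP for 15 and in GMP for 10, so GMP and MEP most often held the extremes.

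**Figure D1:**
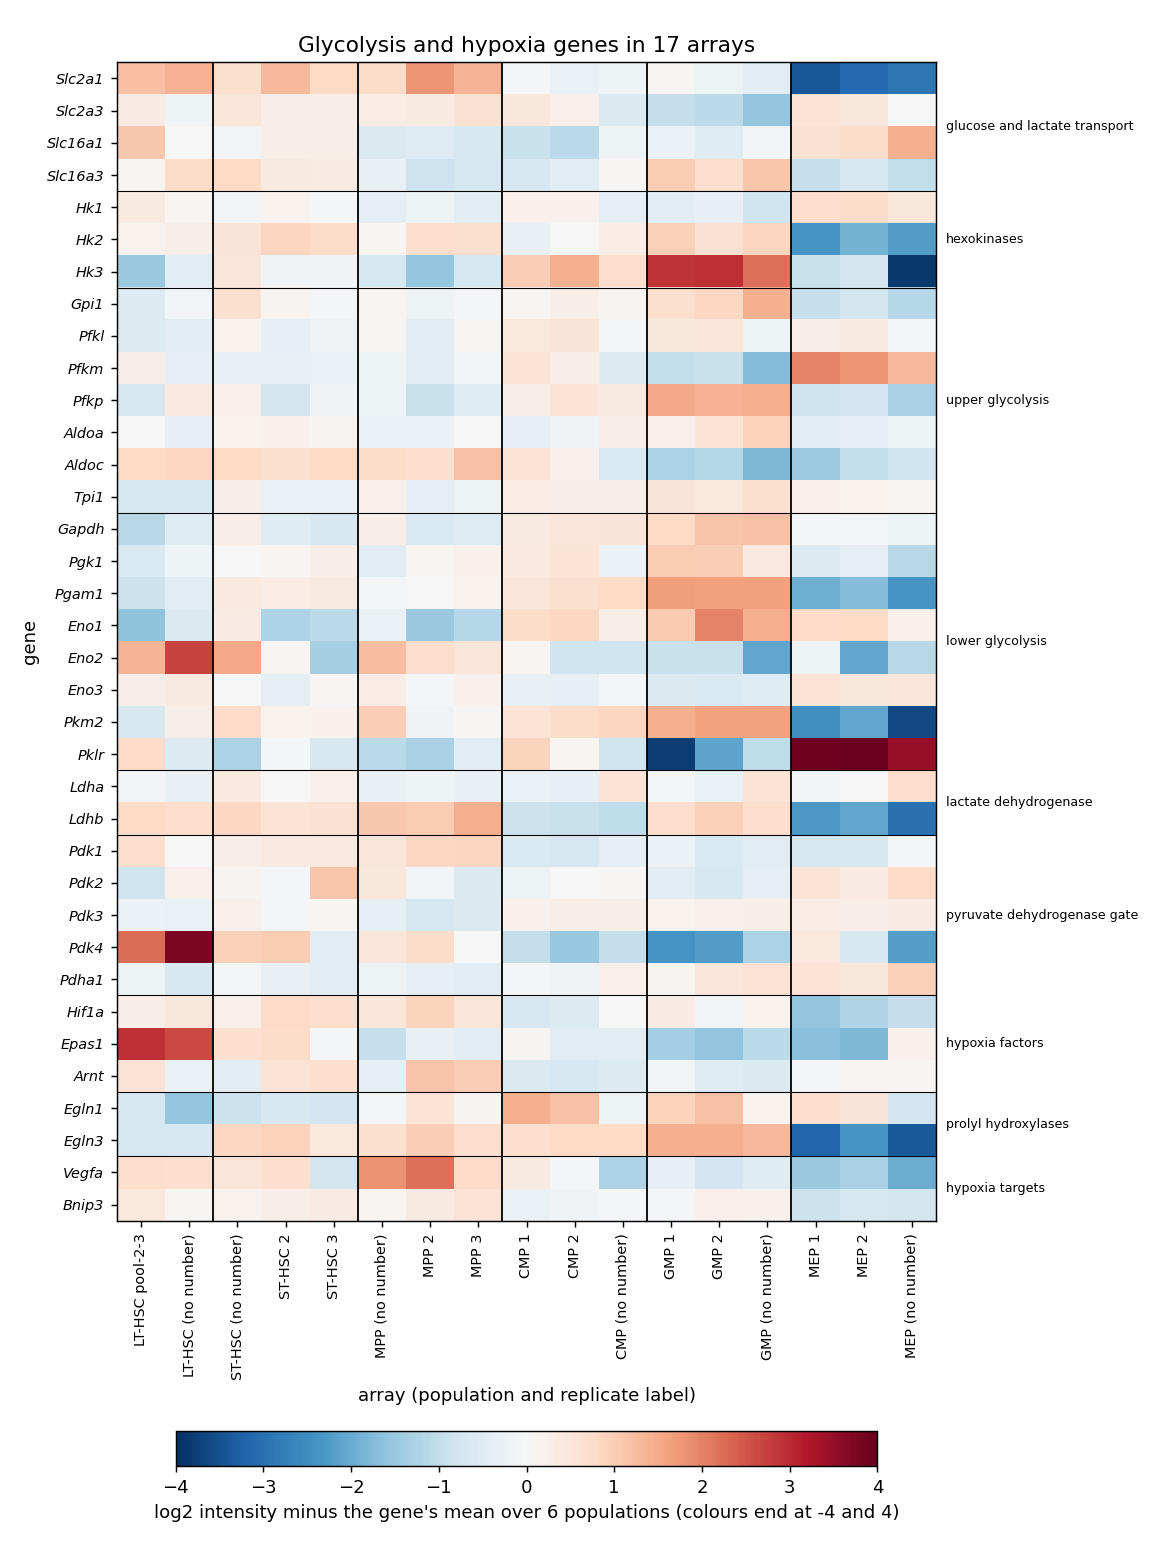
Each row is a gene, grouped by role, and each column an array; colour gives the log2 intensity minus the gene's mean over 6 populations, with colours ending at -4 and 4. Pklr and Pfkm are red in the 3 MEP arrays, where Slc2a1, Hk2, Pgam1, Pkm2, Ldhb and Egln3 are blue, and Epas1 and Pdk4 are reddest in the 2 LT-HSC arrays.

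These 5 genes shared one feature, their lowest level in MEP. The glucose transporter Slc2a1 read 11.13 and 11.32 in LT-HSC, 11.21, 10.71 and 10.57 in ST-HSC, 11.68, 11.28 and 10.67 in MPP, 9.85, 9.66 and 9.74 in CMP, 9.96, 9.73 and 9.49 in GMP, and 6.54, 6.82 and 7.04 in MEP. It thus fell in 3 steps that did not overlap, the HSC subsets, then CMP with GMP, then MEP, whose mean lay 4.43 below that of LT-HSC. Hk2, which phosphorylates glucose and binds mitochondria, read 11.57 and 11.67 in LT-HSC, 12.29, 12.18 and 11.94 in ST-HSC, 12.13, 12.08 and 11.53 in MPP, 11.13, 11.42 and 11.73 in CMP, 12.38, 12.06 and 12.31 in GMP, and 9.09, 9.53 and 9.19 in MEP. All populations but MEP overlapped with at least 1 other, and the MEP arrays lay apart below.

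Pgam1, which moves the phosphate of phosphoglycerate, read 13.06 and 13.51 in LT-HSC, 14.22, 14.30 and 14.32 in ST-HSC, 13.96, 14.07 and 13.87 in MPP, 14.42, 14.58 and 14.73 in CMP, 15.60, 15.58 and 15.57 in GMP, and 11.97, 12.19 and 11.57 in MEP. No pair of populations overlapped, in the order GMP, CMP, ST-HSC, MPP, LT-HSC and MEP. Ldhb, the subunit of lactate dehydrogenase that favours pyruvate formation, read 12.84 and 12.74 in LT-HSC, 12.57, 12.66 and 12.87 in ST-HSC, 13.05, 13.48 and 13.11 in MPP, 11.16, 11.15 and 11.00 in CMP, 12.73, 12.99 and 12.73 in GMP, and 9.74, 9.95 and 9.06 in MEP. GMP was level with LT-HSC and ST-HSC, CMP lay below all of them and MEP below CMP. Egln3, a prolyl hydroxylase that HIF itself induces, read 7.27 and 7.31 in LT-HSC, 8.90, 8.40 and 8.79 in ST-HSC, 8.97, 8.68 and 8.60 in MPP, 8.65, 8.77 and 8.77 in CMP, 9.39, 9.43 and 9.26 in GMP, and 4.81, 5.61 and 4.63 in MEP. It was high in GMP, lower in LT-HSC than in any other population except MEP, and well above background on only 1 of 3 MEP arrays.

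**Figure D2:**
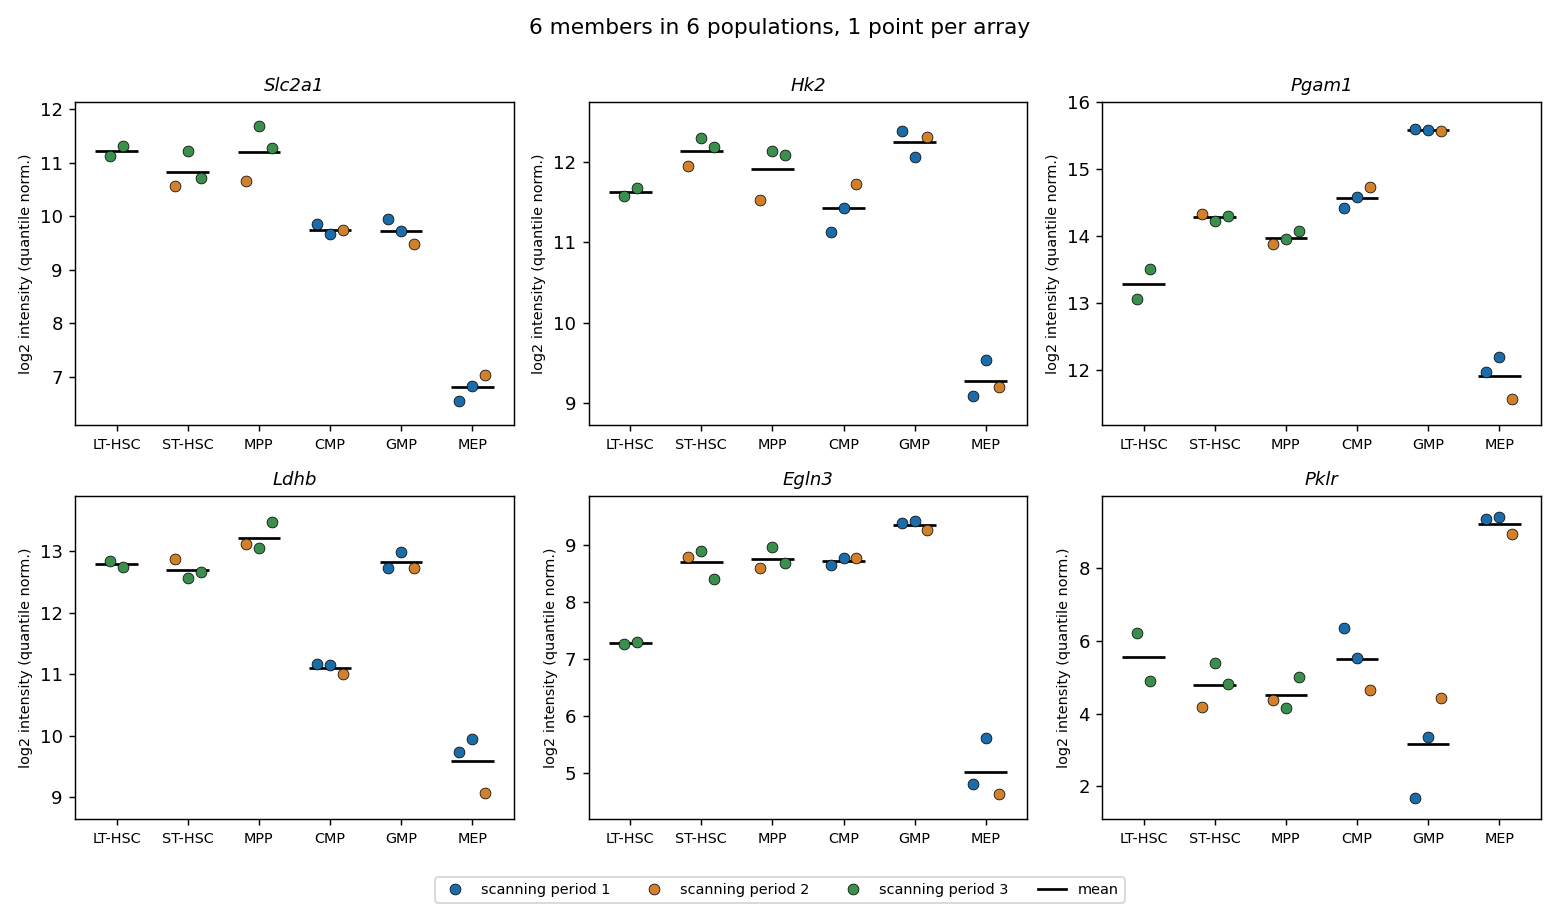
Log2 intensity (vertical axes, each with its own range) of the 5 members past p 1e-06 and of Pklr in 6 populations, 1 point per array coloured by scanning period, with a line at the mean. MEP stands below every other population in 5 panels and above every other in the Pklr panel.

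The myeloid branches were compared next, since GMP and MEP each have 2 arrays in scanning period 1 and 1 in period 2. Of the 36 members, 15 were higher and 7 lower in GMP, that is 61.1%, where limma called 19.0% of all genes (10.5% higher and 8.51% lower) at an adjusted p under 0.05. The median difference of the members was 0.50 against -0.07 over all genes. Among bright members 20 of 31 were called, beside 32.8% of genes as bright. The GMP and MEP arrays did not overlap for 27 members (18 higher, 9 lower in GMP), compared with 34.6% of all genes. With scanning period as a block 23 members were called, 21 of them also without it, where 27.2% of genes were called. All 22 differences kept their sign in period 2 alone.

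Every step from glucose entry to pyruvate but triose phosphate isomerase had a called member, and that step had one with a block. The aldolase and Gapdh steps lost theirs with 75th percentile scaling. At several steps one isoform was higher in GMP while another was higher in MEP. Among transporters, Slc2a1 was 2.92 higher in GMP (SE 0.248, adjusted p = 1.67e-06). Slc2a3, a high-affinity glucose transporter, read 9.32, 9.23 and 8.73 in GMP and 10.84, 10.74 and 10.27 in MEP. The groups did not overlap, and Slc2a3 was 1.52 lower in GMP (fitted difference -1.52, SE 0.265, adjusted p = 0.000851). Averaging its probes gave -0.40 (adjusted p = 0.246). The other probes in that average were well above background on 3 and 0 of 17 arrays. The last of these lies on chr17, and the brightest on chr6. The lactate carriers also parted. Slc16a1 (MCT1) read 11.66, 11.42 and 11.79 in GMP and 12.51, 12.63 and 13.32 in MEP, a difference of -1.20 (SE 0.301, adjusted p = 0.0114) that lost its call without the GMP array numbered 2 or the unnumbered MEP array (adjusted p up to 0.0554), whereas Slc16a3 (MCT4), the carrier of strongly glycolytic cells, was 1.79 higher in GMP (SE 0.24, adjusted p = 9.15e-05).

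The largest difference among hexokinases was that of Hk3, a myeloid isoform, which read 14.20, 14.21 and 13.51 in GMP and 10.40, 10.55 and 7.44 in MEP. Every GMP array lay above every MEP array by more than 2 on the log2 scale, and the MEP array of period 2 was far below the other MEP arrays. The difference was 4.51 (SE 0.651, adjusted p = 0.000177), with 3.73 in period 1 and 6.07 in period 2. Hk2 was 2.98 higher in GMP (SE 0.204, adjusted p = 3.09e-07). Hk1, the isoform of most tissues and of red cells, went the other way, with a difference of -1.14 (SE 0.182). Phosphofructokinase, which commits sugar to glycolysis, showed the same exchange. The muscle-type gene Pfkm read 10.23, 10.32 and 9.5 in GMP and 13.21, 12.97 and 12.51 in MEP, a difference of -2.88 (SE 0.296, adjusted p = 9.04e-06) with no overlap, and the platelet-type gene Pfkp was 2.41 higher in GMP (SE 0.293). Pfkl differed by 0.09 (95% interval -0.407 to 0.593) and was not called. Gpi1, which converts glucose 6-phosphate to fructose 6-phosphate, was 1.88 higher in GMP and Aldoa, an aldolase, 0.87 higher. Aldoc and the triose phosphate isomerase Tpi1 were not called, with differences of -0.33 and 0.40, but Tpi1 was called with scanning period as a block (adjusted p = 0.00679) or scan day (0.37, adjusted p = 0.0248) and its groups did not overlap.

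At the last step, pyruvate kinase, the isoform genes differed in opposite directions. Pkm2, the gene of the muscle and proliferation-associated isoforms, read 13.72, 13.87 and 13.87 in GMP and 9.80, 10.19 and 8.65 in MEP. The groups lay more than 3 apart on the log2 scale, with a difference of 4.27 (SE 0.385, adjusted p = 2.84e-06), and the other 2 probes of the gene gave 4.2 and 4.25. Pklr, the liver and red cell isoform whose loss causes hemolytic anemia, read 1.68, 3.36 and 4.44 in GMP and 9.34, 9.41 and 8.93 in MEP. Its difference of -6.07 (SE 0.626, adjusted p = 9.47e-06) was the largest of any member in any comparison. Only 1 of 3 GMP arrays was well above background, so the fitted size rests on dim spots there. Between these ends, Pgam1 was 3.67 higher in GMP (SE 0.166, adjusted p = 2.15e-08), the phosphoglycerate kinase Pgk1 1.47 higher and Gapdh 1.15 higher, while Eno3, the muscle enolase, differed by -1.07 (SE 0.144). Eno1 (0.91, adjusted p = 0.213, and 0.0369 with the block, where it was called) and the neuronal enolase Eno2, which no GMP or MEP array counted as well above background, were not called without the block. Gapdh and Eno1 have near-identical copies in the genome, so what their probes read is uncertain. With each array scaled to its 75th percentile, Gapdh (0.77, adjusted p = 0.104) and Aldoa (0.64, adjusted p = 0.053) were not called between GMP and MEP.

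Of the lactate dehydrogenases, Ldhb was 3.23 higher in GMP (SE 0.207, adjusted p = 1.75e-07), whereas Ldha, the main subunit of glycolytic cells, differed by -0.12 (95% interval -0.717 to 0.467). Of the pyruvate dehydrogenase genes among the members, 1 of 5 was called. Pdk2 was called lower in GMP (-1.02, adjusted p = 0.0491, and 0.0503 with scanning period as a block), and Pdk1, Pdk3 and Pdha1 differed by 0.03, -0.08 and -0.26 and were not called. Pdk4 read 1.63, 1.79 and 2.75 in GMP and 4.46, 3.39 and 1.81 in MEP. These arrays overlapped, none was well above background, and the difference (-1.17, adjusted p = 0.27) was not called. In the hypoxia arm, Hif1a was 1.34 higher in GMP (SE 0.228, adjusted p = 0.00071), Egln3 4.34 higher (SE 0.221, adjusted p = 3.96e-08) and Bnip3, a HIF target of mitophagy, 0.86 higher (SE 0.151). Epas1, which encodes HIF-2 alpha, Arnt, Egln1, the main oxygen-sensing prolyl hydroxylase, and Vegfa were not called. The Vegfa arrays did not overlap (difference 1.05, adjusted p = 0.157), and it was called with the replicate number as a block (adjusted p = 0.0203). The markers moved with this comparison too, since 7 mature erythroid markers summed to 19100 to 59800 in MEP and 493 to 1740 in GMP, where Epb4.2 and Rhag were not well above background. Their part in the MEP-high isoforms was not tested.

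**Figure D3:**
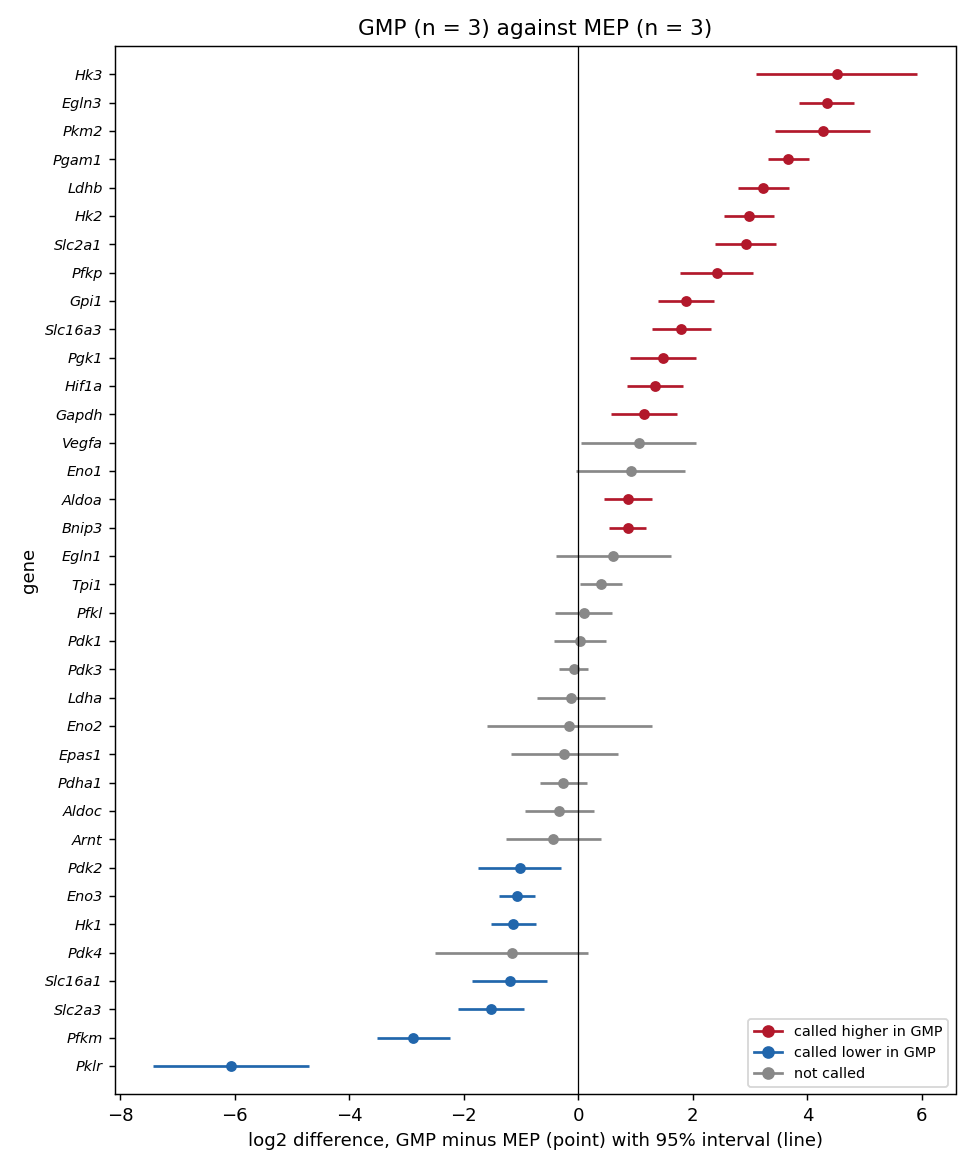
The log2 difference GMP minus MEP of the 36 members (points) with its 95% interval (lines), sorted by size, with 15 called higher in red, 7 called lower in blue and 14 not called in grey. Pklr lies at -6.07 at the bottom and Hk3 at 4.51 at the top.

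HSC subsets were compared with the myeloid populations, a division that the study also drew. Here 14 members were higher and 10 lower in the HSC subsets, 66.7% of the members, beside 40.7% of all genes (21.7% higher and 19.1% lower). The median difference of the members was 0.02 against 0.04 over all genes, with 18 differences above and 18 below 0. Among bright members 19 of 31 were called, close to the 59.1% of genes as bright. Only 3 members, Slc2a1, Aldoc and Pdk1, had HSC subset arrays that did not overlap with the myeloid arrays, all 3 higher in HSC subsets, compared with 7.18% of all genes. Scanning period partly follows this division. With the period as a block, 10 members were called (7 higher, 3 lower), beside 16.1% of all genes (8.38% higher and 7.71% lower). Of the 24 calls 9 held with the block, and 21 kept their sign both there and in period 2 alone, which holds 2 HSC subset and 3 myeloid arrays. Hk3, Pfkl and Arnt did not.

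The 9 that held were 7 genes higher and 2 lower in HSC subsets. Slc2a1 ran from 10.57 (lowest) through 11.17 (median) to 11.68 (highest) over 8 HSC subset arrays and from 6.54 through 9.66 to 9.96 over 9 myeloid arrays. The groups lay apart, by 2.33 on average (SE 0.149, adjusted p = 1.16e-07), and by 1.87 with the block. Aldoc, an aldolase best known from brain, ran from 7.98 through 8.13 to 8.49 against 5.55, 6.36 and 7.90 and was 1.62 higher (SE 0.167, 1.83 with the block). Ldhb ran from 12.57 through 12.86 to 13.48 against 9.06, 11.15 and 12.99, overlapping through GMP, and was 1.73 higher (SE 0.124, adjusted p = 3.37e-07, 2.01 with the block). The angiogenic HIF target Vegfa was 1.62 higher (SE 0.277, 2.36 with the block, but 0.64 and not called over all its probes, adjusted p = 0.0819) and Slc2a3 0.56 higher (SE 0.159, 1.01 with the block), both with overlap.

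Pdk4 and Eno2 were dim genes called well above background only in HSC subsets. Pdk4, the kinase that spares pyruvate in fasting and in quiescent cells, ran from 3.58 through 4.87 to 7.79 in HSC subsets and from 1.63 through 2.75 to 4.46 in myeloid arrays. All 8 HSC subset arrays and 0 of 9 myeloid arrays counted as well above background, which bounds the difference at least 2.07-fold higher in HSC subsets. The bound sets the bright mean against the higher of the dim probe's own signal and the lowest signal well above background on each myeloid array, and the measured difference was 2.60 (SE 0.373, adjusted p = 0.000101, 3.08 with the block). Eno2 ran from 2.48 through 4.79 to 6.52 against 1.74, 2.94 and 3.89, well above background on 7 of 8 and on 0 of 9 arrays, and was at least 1.42-fold higher (measured difference 1.94, SE 0.402, adjusted p = 0.00175, 3.37 with the block). Both overlapped in their measured values. The lowest log2 level well above background was 3.61 to 4.77 on the myeloid arrays. It was 2.33 to 2.71 on the period 3 ST-HSC and MPP arrays. Pdk4 thus counted as well above background at 3.58 in ST-HSC but not at 4.46 in MEP. Mean levels in LT-HSC, ST-HSC and MPP were 7.0, 4.5 and 4.4 for Pdk4 and 5.8, 3.9 and 4.6 for Eno2. Both bounds lean on LT-HSC, since the ST-HSC and MPP means lay within the myeloid range of lowest levels. The 2 genes that were lower with and without the block belong to the pyruvate dehydrogenase step. Pdha1, the catalytic subunit of the complex, ran from 10.59 through 10.87 to 11.17 against 11.07, 11.66 and 12.18, with a small overlap (difference -0.69, SE 0.116, adjusted p = 0.000362, -0.71 with the block). Pdk3 differed by -0.47 (SE 0.0718, -0.32 with the block) and lost its call with scan day as a block (-0.31, adjusted p = 0.0675). Ldha, with -0.18 and no call on its brightest probe, was called lower with the block (-0.59, adjusted p = 0.0136), with scan day as a block (-0.61, adjusted p = 0.0173) and over all its probes (-0.71, adjusted p = 2.14e-05).

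None of the other 15 calls passed the threshold with the block. Enolase 1 ran from 6.68 through 7.20 to 8.61 in HSC subsets and from 8.49 through 9.09 to 10.29 in myeloid arrays. Its difference of -1.80 (SE 0.267, adjusted p = 0.000133) was -0.57 with the block and -0.61 in period 2. Gapdh ran from 13.54 through 14.13 to 14.89 against 14.43, 15.11 and 15.81, and its difference of -0.93 (SE 0.159) became -0.32. Egln1 ran from 6.26 through 7.18 to 8.38 against 7.08, 8.52 and 9.28, with -1.13 (SE 0.279) and -0.52. For Eno1 and Gapdh the ST-HSC and MPP arrays of period 2 lay nearer the myeloid arrays than did those of period 3, with Gapdh at 14.89 and 14.88 in period 2 against 14.00 to 14.16 in period 3. Hk3 ran from 9.76 through 10.73 to 11.78 against 7.44, 12.29 and 14.21, and its difference of -1.25 (SE 0.391) turned to 0.11 with the block. Pklr ran from 4.16 through 4.86 to 6.21 against 1.68, 5.52 and 9.41, the myeloid arrays lying on both sides of the HSC subsets, and its difference of -1.01 (adjusted p = 0.0471) was -1.49 with the block and -0.52 with 75th percentile scaling (adjusted p = 0.284).

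The hypoxia factors were all called higher in HSC subsets without the block and none with it. Hif1a was 1.02 higher (SE 0.137, adjusted p = 5.87e-05), with 0.50 in the block fit and 0.62 in period 2. Epas1 ran from 3.99 through 5.21 to 7.84 against 3.13, 3.87 and 5.10 and was 1.78 higher (SE 0.259, adjusted p = 0.000114). It gave 1.23 with the block (adjusted p = 0.106) and 0.30 in period 2, which has no LT-HSC array. Arnt, the shared partner of both, went from 0.65 to -0.30. Of the remaining members, Pdk1 was 0.95 higher (0.57 with the block), Hk2 0.91 (0.48), Egln3 0.54 (0.66) and Bnip3 0.54 (0.27), while Tpi1 had -0.60 (-0.21), Pfkp -0.59 (-0.01) and Pfkl -0.47 (0.13). Hk2 and Egln3 had their highest mean in GMP (12.25 and 9.36) and their lowest in MEP (9.27 and 5.0), so the myeloid populations lay on both sides of the HSC subsets. The summed mature neutrophil markers given above, to which S100a9 gave the most, were also higher in LT-HSC and ST-HSC than in CMP. Of the 7 genes Mmp8 did not follow the sum, with mean levels of 5.20 in LT-HSC, 6.40 in ST-HSC and 6.31 in CMP. The part of these markers here was not tested.

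**Figure D4:**
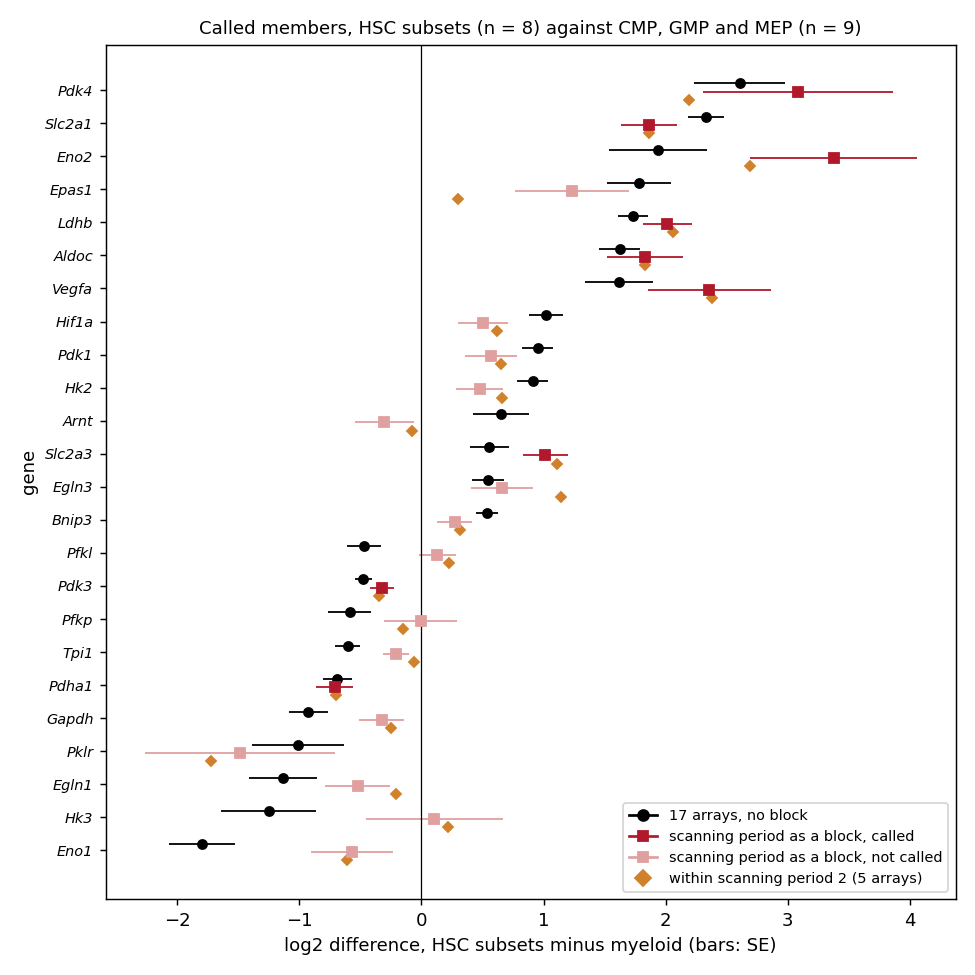
The 24 members called between HSC subsets and myeloid populations, sorted by log2 difference, with the fit without a block (black circles, bars SE), with scanning period as a block (red squares where called, pink where not, bars SE) and within period 2 (orange diamonds, 5 arrays). Red squares stand on 9 rows, and Hk3, Pfkl and Arnt have squares on the opposite side of 0 from their circles.

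Within the HSC subsets, LT-HSC were compared with ST-HSC and MPP. Limma called 5 members (2 higher, 3 lower in LT-HSC), or 13.9%, beside 7.99% of all genes (5.53% higher and 2.45% lower). Of bright members 2 of 31 were called, beside 6.40% of genes as bright. The arrays did not overlap for 6 members, or 16.7%, against 19.0% of all genes, and with scanning period as a block 8 were called, where 16.0% of genes were called. These shares lie near those of all genes, so the genes below describe themselves and not the list.

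Epas1, the gene of HIF-2 alpha, read 7.84 and 7.57 in LT-HSC, 5.63, 4.84 and 5.58 in ST-HSC and 4.62, 4.49 and 3.99 in MPP. The LT-HSC arrays lay above all others and ST-HSC above MPP, with a difference of 2.84 (SE 0.432, adjusted p = 0.00147). In the myeloid arrays Epas1 read 5.02, 4.49 and 4.49 in CMP, 3.55, 3.33 and 3.87 in GMP and 3.24, 3.13 and 5.10 in MEP. It was well above background on 4 of these 9. The difference was 2.98 with the dim LT-HSC array left out and 2.71 without the pooled one, and it passed the threshold both ways (adjusted p = 0.0134 and 0.0091). Only the brightest Epas1 probe showed it. The other probes gave 0.14 and -0.95 and were above background on 5 and 4 arrays, and the mean of all 3 gave 0.68 (adjusted p = 0.225).

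Pdk4 read 6.26 and 7.79 in LT-HSC, 5.05, 3.58 and 4.98 in ST-HSC and 4.76, 4.05 and 4.51 in MPP. Both LT-HSC arrays lay above the rest, with a difference of 2.53 (SE 0.621, adjusted p = 0.025). Its call rests on the dim array, since without it the difference was 1.77 (adjusted p = 0.358), against 3.30 without the pooled one. The 6 ST-HSC and MPP levels lie below 5.67, the lowest level that counted as well above background on that dim array. The call was also lost without the MPP array numbered 3 and with slide as a random block (2.40, adjusted p = 0.201). Eno2 read 5.17 and 6.52 in LT-HSC, 3.87, 2.48 and 5.33 in ST-HSC and 4.53, 4.32 and 5.05 in MPP, with overlap, and its difference of 1.58 (adjusted p = 0.185) was not called, but was with scanning period or scan day as a block (2.04, adjusted p = 0.0467 and 0.0436).

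Egln3 was the clearest gene that was lower in LT-HSC. Its LT-HSC levels, 7.27 and 7.31, lay apart from the 6 others, which ran from 8.40 through 8.74 to 8.97, with a difference of -1.44 (SE 0.221, adjusted p = 0.00163). The difference was -1.42 with the pooled array left out and was called without either LT-HSC array. Pgam1 lay at 13.06 and 13.51 against 13.87 to 14.32, a difference of -0.84 (SE 0.166, adjusted p = 0.0091) that was -0.61 without the pooled array (adjusted p = 0.0648). Its call was also lost with slide as a random block (-0.85, adjusted p = 0.0818) and with the replicate number as a block (-0.54, adjusted p = 0.13). Tpi1 read 13.06 and 13.07 in LT-HSC, 13.52, 13.55 and 14.05 in ST-HSC and 13.37, 13.58 and 13.97 in MPP. These did not overlap, but its call (-0.61, adjusted p = 0.0449) was lost without any 1 of 14 arrays and with slide as a random block (-0.72, adjusted p = 0.0881). Egln1 read 7.16 and 6.26 in LT-HSC, 7.21, 7.07 and 6.97 in ST-HSC and 8.38, 7.94 and 7.75 in MPP. LT-HSC overlapped ST-HSC and lay below MPP, and the difference of -0.85 was called with the block (-0.94, adjusted p = 0.0246) and not without it (adjusted p = 0.313). The same held for Pgk1, with -0.41 (adjusted p = 0.407) and -0.53 with the block (adjusted p = 0.0274). Pkm2 read 11.63 and 12.49 in LT-HSC against 12.13 to 13.25, and Pklr 6.21 and 4.90 against 4.16 to 5.38. Slc16a1 read 12.99 and 11.88 against 11.27 to 12.14. All 3 overlapped and none was called. Slc2a1, which set HSC subsets apart from myeloid cells, differed by 0.21 between LT-HSC and the others (95% interval -0.33 to 0.741), and Hif1a by -0.23 (95% interval -0.718 to 0.267). Markers of other cells moved with this comparison. The 6 MEP markers, all well above background on every array, summed to 36400 to 55300 in LT-HSC, 20700 to 31200 in ST-HSC and 8080 to 10100 in MPP, and the 7 mature erythroid markers to 18000 to 24000, 10300 to 22200 and 7330 to 15900. LT-HSC also had the highest B cell marker sums and, level with MPP, higher T cell marker sums than ST-HSC, both given above, and the part of these markers was not tested. The LT-HSC arrays stood alone on their slide, so slide and population cannot be told apart here.

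**Figure D5:**
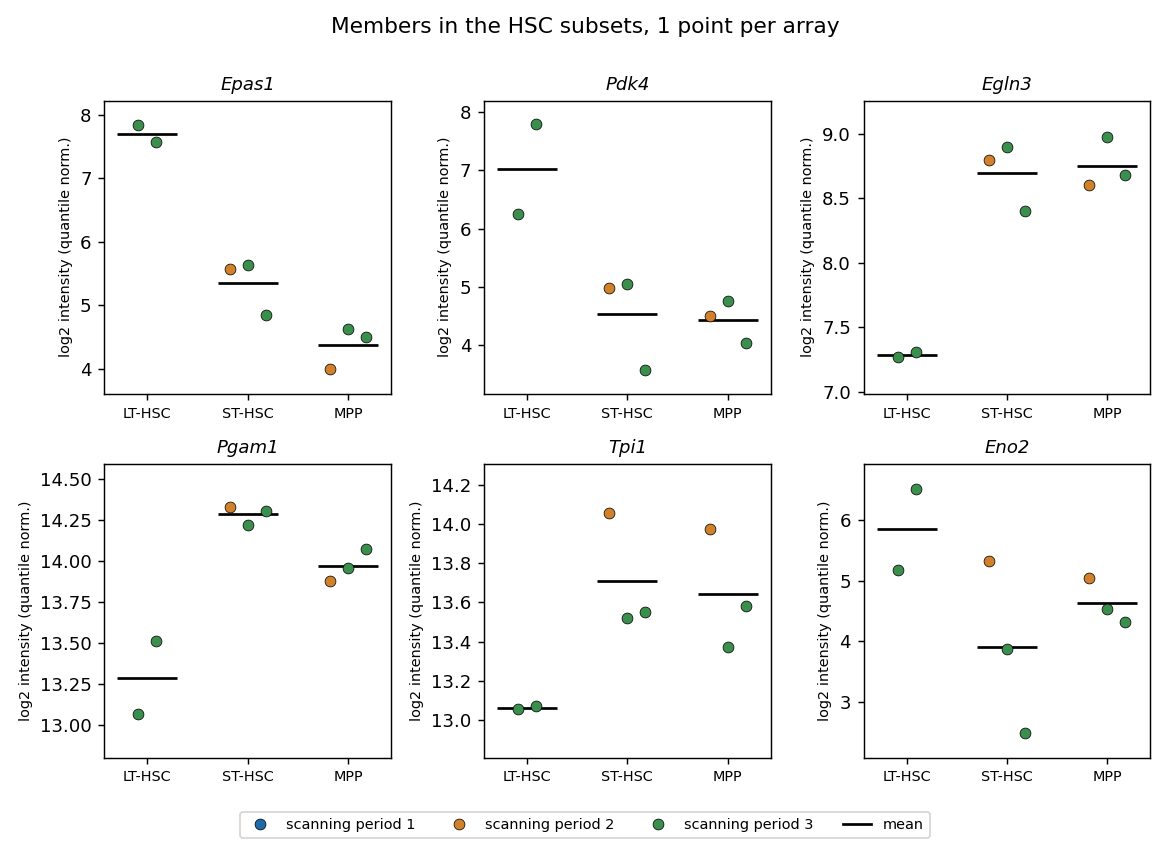
Log2 intensity (vertical axes, each with its own range) of Epas1, Pdk4, Egln3, Pgam1, Tpi1 and Eno2 in LT-HSC (2 arrays), ST-HSC and MPP (3 each), 1 point per array coloured by scanning period, with a line at the mean. The LT-HSC points stand apart in every panel but that of Eno2.

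Several members rest on more than 1 probe, and the brightest does not always speak for the rest. There were 18 members with 1 probe and 18 with several. Hk1 differed by -0.07 between HSC subsets and myeloid populations on its brightest probe (chr10:61731916-61731975 in mm9), whereas 4 other probes, all upstream of it in the gene, gave -1.32 to -2.10. The second probe of Ldha gave -1.24 where the brightest gave -0.18, and that of Gpi1 gave 1.99 where the brightest gave -0.11. This Gpi1 probe was dim, with a mean level of 4.8 against 15.57, and well above background on 12 of 17 arrays. Pdk1 was called in this comparison on its brightest probe (0.95) but not on the second (-0.15), whereas between LT-HSC and the other HSC subsets the second was called (-0.79, adjusted p = 0.0164) and the brightest was not (-0.17). Vegfa had 1.62 on its brightest probe and 0.50, 0.38 and 0.05 on the others, and Arnt had 0.65 against -0.42, -0.11 and -0.68. Of the most variable genes, Slc2a1 (chr4:118809864-118809923), Hk2 (chr6:82675056-82675115), Pgam1 (chr19:41992898-41992957), Ldhb (chr6:142438838-142438897) and Egln3 (chr12:55280953-55281012) each had 1 probe, with coordinates in mm9 as the array files give them.

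Neighbouring pathways were read in the same fits from lists of genes that are not members. Their counts stand beside 21.7% higher and 19.1% lower among all genes, or 8.38% and 7.71% with scanning period as a block. Of 16 citric acid cycle genes, 10 were lower and 0 higher in HSC subsets (10 lower with the block), with a median difference of -0.35 against 0.04 over all genes. Ogdh, a subunit of the 2-oxoglutarate dehydrogenase, had -2.04 (SE 0.237, -0.75 with the block). Of 8 other pyruvate dehydrogenase genes 3 were lower and 1 higher (4 and 0 with the block), the acetyltransferase Dlat with -0.77 and the phosphatase Pdp1 with 0.57 (-0.17 with the block). Of 8 pentose phosphate genes, 4 were lower and 1 higher (3 and 0 with the block). Pgd, which makes NADPH, had -1.18 and H6pd 0.23, and neither was called with the block (-0.51 and 0.20). Of 21 other glycolysis and gluconeogenesis genes 7 were higher and 3 lower (4 and 2 with the block), from the fructose bisphosphatase Fbp1 with 1.40 to the glucose phosphatase G6pc3 with -1.09. Of 13 other hypoxia pathway genes 3 were higher and 3 lower (1 and 0 with the block), and neither Hif3a (1.48, then -0.45) nor Egln2 (-1.12, then -0.29) held. Of 22 other hypoxia targets 9 were higher and 4 lower (5 and 2 with the block), from the transcription repressor Bhlhe40 with 2.77 (4.41 with the block) to Stc2 with -1.21 (-0.72 and not called with the block), which was well above background on 5 arrays.

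Between GMP and MEP, where 10.5% of all genes were higher and 8.51% lower (13.3% and 13.8% with the block), 6 of the other glycolysis genes were higher in GMP and 4 lower (7 and 6 with the block). Tigar, a fructose bisphosphatase induced by p53, was at least 6.43-fold higher in GMP and well above background on 0 of 3 MEP arrays, while the phosphatase Minpp1 had -2.81. The pentose phosphate genes had 3 higher, led by Pgd with 1.71, and 0 lower (4 and 1 with the block). The citric acid cycle had 0 higher and 4 lower (0 and 8 with the block), with Idh3a at -1.16, and the other pyruvate dehydrogenase genes 0 higher and 2 lower (1 and 4 with the block), with Dlat at -0.79. Of the hypoxia pathway genes 2 were higher and 1 lower (2 and 3 with the block), the HIF antagonist Cited2 with 2.86 and the elongin C gene Tceb1 with -1.0. Of the hypoxia targets 6 were higher, Ndrg1 with 2.22 among them, and 3 lower (8 and 4 with the block), the collagen prolyl hydroxylase P4ha2 being at least 8.91-fold lower in GMP and well above background on 0 of 3 GMP arrays. Between LT-HSC and the other HSC subsets, where 5.53% of all genes were higher and 2.45% lower (8.33% and 7.64% with the block), 3 other glycolysis genes were higher and 1 lower (4 and 1 with the block), from the muscle phosphoglycerate mutase Pgam2 with 3.83 (SE 0.66, adjusted p = 0.00367) to G6pc3 with -0.57. Of the hypoxia targets 1 was higher, the transferrin receptor Tfrc with 0.65, and 1 lower, Ndrg1 with -0.95 (2 and 1 with the block). The pyruvate dehydrogenase, pentose phosphate, citric acid cycle and hypoxia pathway lists had 0 calls there by limma without the block, and 1, 2, 1 and 0 of their genes had an unadjusted p under 0.05. With the block 1 pyruvate dehydrogenase gene and 2 of the citric acid cycle were lower, and 1 pentose phosphate gene was higher. Pck1 and Pdp2 were not read on the array.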

How the data were processed

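Total RNA of sorted cells was measured on 17 Agilent 1-colour arrays. The deposited files hold the scanner's processed intensity per spot from Feature Extraction 9.5.3.1 or 10.2.1.3, and the authors' value table served as an alternative. Intensity was turned to log2 and quantile normalized, as the authors did with limma. Here, 1639 control spots and outlier spots were left out, spots of 1 probe were averaged, and the brightest probe of each of 28090 gene names was kept. Limma 3.58.1 in R 4.3.3 fitted 1 mean per population over all arrays, and p-values were adjusted by Benjamini-Hochberg over all gene names, with calls under 0.05. Members and lists were chosen with earlier results of these data known. Per-array values were given for members past p 1e-06 in the F-test or among the 5 largest differences each way, and for other lists the largest called difference each way. The fit was tested on simulated data of 28090 genes, with 100 genes of each size changed and independent noise per array. A change of 2 on the log2 scale was recovered in 89% (HSC subsets against myeloid), 64% (GMP against MEP) and 62% (LT-HSC). A change of 1 was recovered in 60%, 36% and 22%. The data had 11438, 5331 and 2243 calls in these comparisons, and deviations shared between arrays, given below. The shares therefore do not measure recovery in the fits reported here. Replicates are labelled as separate samples but not by animal, so p-values measure the spread between these samples, which may be partly technical. Deviations of same-numbered arrays from their population means correlated over 0.1 in 8 of 8 pairs on 1 slide and in 0 of 6 on different slides, and those of arrays without a number in 5 of 15 pairs (-0.14 to 0.67). The 3 GMP and MEP pairs gave 0.131 to 0.404. Among the numbered arrays, number and slide cannot be told apart. In period 2, pairs of 1 sort on different slides gave 0.404 (GMP with MEP), 0.481 (CMP with MEP) and 0.668 (ST-HSC with MPP). On 1 slide, GMP with CMP, of 1 sort, gave 0.506. Pairs of different sorts on 1 slide gave 0.0463 (GMP with MPP), -0.00869 (CMP with MPP) and 0.0796 (MEP with ST-HSC). What arrays of 1 sort shared was not tested. The main fit left such pairing out, and the replicate number was a block only in an alternative. Markers Cebpe, Tfr2 and Ly6g were not read. Some genes of the lists are not reported by name here. The number of arrays limits the precision.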

Additional observations from a re-analysis of the deposited data

How the results depend on the processing

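The calls were repeated with 75th percentile scaling, normexp background correction, the authors' table, no dim probes, the mean of all probes, scanning period, scan day (chosen after seeing the data) or slide as a block, a replicate block, and without both LT-HSC arrays or each array in turn. Of 1372 values of called members in these fits, 1255 kept direction and call, 109 lost the call and 8 reversed, counting an uncalled value that changed sign while uncalled as kept; of 1508 uncalled values 25 became calls and 1 reversed. HSC subsets against myeloid moved from 24 calls to 10 with scanning period as a block and to 10 with scan day. With 75th percentile scaling the median of all genes moved to 0.37 in HSC subsets against myeloid, -0.42 in GMP against MEP and 0.23 in LT-HSC, from 0.04, -0.07 and -0.04. With the 2 blocks Hk3 gave 0.11 and 0.32, Pfkl 0.13 and 0.099, Arnt -0.30 and -0.35, and Pfkp 0.036 with scan day. Period 2 alone, not counted above, reversed 3 of 24 called values in HSC subsets against myeloid and 0 of 22 in GMP against MEP, with 0.22 for Hk3, 0.22 for Pfkl and -0.074 for Arnt. The mean of all probes gave 0.94 for Gpi1, whose second probe was dim, and -0.14 for Arnt. LT-HSC calls moved from 5 to 8 with either block and to 2 with slide as a random block (correlation 0.38), which ended Pdk4, Pgam1 and Tpi1. The cause was not tested. The replicate block gave 32 calls in the F-test, 20 for HSC subsets, 23 for GMP against MEP and 4 for LT-HSC, the last without Pgam1. Leaving out each array gave 30 to 33, 21 to 24, 20 to 22 and 3 to 5 calls. In HSC subsets this ended the calls of Pklr and Arnt for 13 of 17 arrays and those of Hk3 and Pfkp without the pooled LT-HSC array; in GMP against MEP it ended Pdk2 for 11 arrays and Slc16a1 for 2. An arm left with 1 array was assumed to vary like the others. Spots near background limit Eno2, Pdk4, Epas1, Pklr and Egln3.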
